A study of Mus musculus with 23 samples.

Results

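The libraries described here are the somatostatin (SST) interneuron libraries of a study of the splicing regulator Slm2 in the mouse hippocampus. They were chosen by the population and genotype in their titles, which gave 8 of the 23 libraries in the series. Excitatory pyramidal cells, named CamK and Grik, made up the other 15 libraries and entered the fit, where they shared one estimate of the spread and served for the comparison of effects between populations. The 8 SST libraries were 4 of conditional knockout of Slm2 (cKO, replicates 3, 4, 5 and 7) and 4 of wild type (WT, replicates 1, 2, 3 and 5), all of polyadenylated RNA. No treatment was named for either genotype. The Cre driver, the deleted exons, the age and sex of the mice and the way the cells were isolated are not given in the sources used here. The labels do not say that each library came from its own animal. The p-values of the main fit therefore measure a spread between libraries, estimated over all 23, which may in part be technical.

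Slm2 is the protein of the gene Khdrbs3, a member of the STAR family of RNA-binding proteins, which bind short A- and U-rich elements and select alternative exons. Its close relatives Sam68 (Khdrbs1) and Slm1 (Khdrbs2) share the RNA-binding domain, and all are known for controlling alternatively spliced exons of the neurexins, presynaptic adhesion molecules. SST interneurons are GABA-releasing cells that contact the dendrites of pyramidal cells. The values are reads per gene, so exon choice was not analysed here and a change in splicing need not move them.

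The SST label fitted the marker genes. Sst, the neuropeptide precursor that names the cells, was 159 to 2125 CPM (counts per 1000000 reads, scaled by TMM factors) in the 8 SST libraries and 3.87 to 10.6 CPM in the other 15. The GABA synthesis genes Gad1 and Gad2, the vesicular GABA transporter Slc32a1, the transcription factor Lhx6 and the neuropeptide Npy were likewise far higher in every SST library than in any other. Slc17a7, the vesicular glutamate transporter of pyramidal cells, was 67.7 to 194 CPM in SST libraries against 855 to 1884 CPM in the others, so RNA of excitatory cells was low but present. Pvalb, a marker of another interneuron class, was 114 to 195 CPM in SST libraries.

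Several libraries stood apart, and not all differences followed the genotype label. Each library held 87612006 to 112993538 reads in genes. Within each genotype none was a duplicate of another, since no pair of replicates agreed within sampling noise. Pairs of a cKO and a WT library were not compared in this way. Libraries cKO 5 and cKO 7 had more RNA of oligodendrocytes, microglia and mitochondrial genes than the other 6, as given with those lists. By sex-linked genes, cKO 4 had almost no Y-chromosome reads (1 read of Ddx3y). Libraries cKO 3 and WT 5 held both Xist (21.1 and 25.7 CPM) and Y-chromosome reads, cKO 4 had 11.6 CPM of Xist, and the other 5 had at most 0.308 CPM. In bulk RNA, fewer cells of a type and less RNA per cell cannot be told apart.

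Few genes separated the genotypes in SST interneurons. Of 18823 genes tested, 2 were lower in cKO (0.0106%) and 0 were higher (0%) at an adjusted p under 0.05, in edgeR's quasi-likelihood test with Benjamini-Hochberg adjustment. The 2 lower genes were Khdrbs3 itself and Rpl3-ps1, an intronless copy (processed pseudogene) of Rpl3. At an unadjusted p under 0.05, 633 genes were higher (3.36%) and 469 lower (2.49%), together 5.85%. In 269 genes (1.43%) every cKO library was above every WT library, and in 240 genes (1.28%) every cKO library was below. DESeq2 called 9 genes higher (0.0478% of 18816) and 2 lower (0.0106%). The median log2 fold change over all genes was 0.02.

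**Figure D1:**
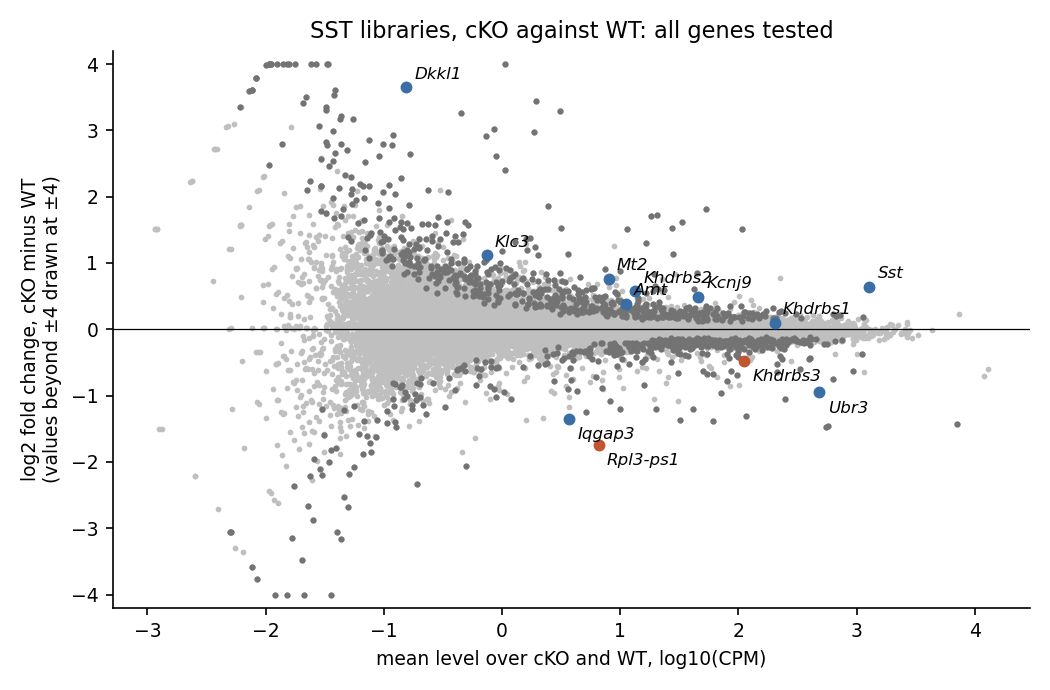
Log2 fold change (cKO minus WT) of each gene tested, against its mean level over the 8 SST libraries as log10(CPM); dark grey points have an unadjusted p under 0.05, orange points an adjusted p under 0.05, and blue points are other named genes. Only Khdrbs3 and Rpl3-ps1 passed the adjusted threshold, and both lie below 0.

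Khdrbs3, the targeted gene, fell in cKO but kept most of its reads. It lies on the plus strand at chr15:68928420-69101211 (GRCm38) and overlaps 1 other annotated gene. The cKO libraries 3, 4, 5 and 7 had 87.9, 82.6, 98.8 and 105.9 CPM, and WT 1, 2, 3 and 5 had 134.5, 124.0, 122.5 and 139.8 CPM. The groups did not overlap, and the highest cKO value was that of cKO 7. The means were 93.8 ± 10.5 CPM in cKO and 130 ± 8.31 CPM in WT (SD, n = 4 each), or -0.47 as a log2 fold change (SE 0.08, adjusted p 0.0309 by edgeR). These are reads over the whole gene, exons outside any deleted part included. For scale, the CamK and Grik libraries had 249 to 439 CPM, so SST interneurons of both genotypes held a lower Khdrbs3 level in CPM than either excitatory population. With cKO 5 and cKO 7 left out, the log2 fold change was -0.61 (edgeR adjusted p 0.00176). With cKO 3, cKO 4 and WT 5 left out, the libraries with high Xist, it was -0.31 (edgeR adjusted p 0.0654). The call held with DESeq2 (adjusted p 1.08e-05), RLE scaling, either change of the filter on low counts, the replicate block across populations and the non-neuronal score. It was lost without cKO 3, 4 or 5 or without WT 1 or 5, and by limma-voom (adjusted p 0.0614). In edgeR it was lost with the SST libraries alone (adjusted p 0.954), with the replicate block within populations (0.225) and with the sex score as a covariate (0.0569). None of the 37 genes tested within 5 Mb on either side of Khdrbs3 was called, and 3 were higher and 1 lower at an unadjusted p under 0.05 (3.36 and 2.49% of all genes), with a median log2 fold change of 0.13.

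Khdrbs2, the gene of Slm1, leaned higher in cKO but missed the threshold. Its values in cKO 3, 4, 5 and 7 were 17.4, 20.4, 14.4 and 11.9 CPM, and in WT 1, 2, 3 and 5 they were 11.96, 10.6, 10.6 and 9.73 CPM. In all, 3 of the 4 cKO libraries lay above every WT library, and cKO 7 lay just under the highest WT library. The means were 16.02 ± 3.66 CPM in cKO and 10.7 ± 0.921 CPM in WT (SD, n = 4 each), or 0.58 as a log2 fold change (SE 0.12, adjusted p 0.300 by edgeR). The setting decided the call: DESeq2 gave an adjusted p of 0.0185, and edgeR without cKO 7 gave 0.70 with an adjusted p of 0.0141. With both cKO 5 and cKO 7 left out the log2 fold change was 0.82 (edgeR adjusted p 0.00176), and with cKO 3, cKO 4 and WT 5 left out it was 0.25 (edgeR adjusted p 0.307). Library cKO 7 had the highest Khdrbs3 and the lowest Khdrbs2 of the cKO group.

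The other STAR genes differed less. Khdrbs1, the gene of Sam68, had 220.8, 237.4, 210.3 and 171.3 CPM in cKO and 196.3, 194.2, 187.8 and 205.9 CPM in WT, in the same order of libraries. The groups overlapped, again through cKO 7 (log2 fold change 0.10, SE 0.09, adjusted p 0.874 by edgeR). Qk, the gene of the splicing factor Quaking, known in oligodendrocytes and astrocytes, differed by -0.09 on the log2 scale (SE 0.11, adjusted p 0.921 by edgeR).

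**Figure D2:**
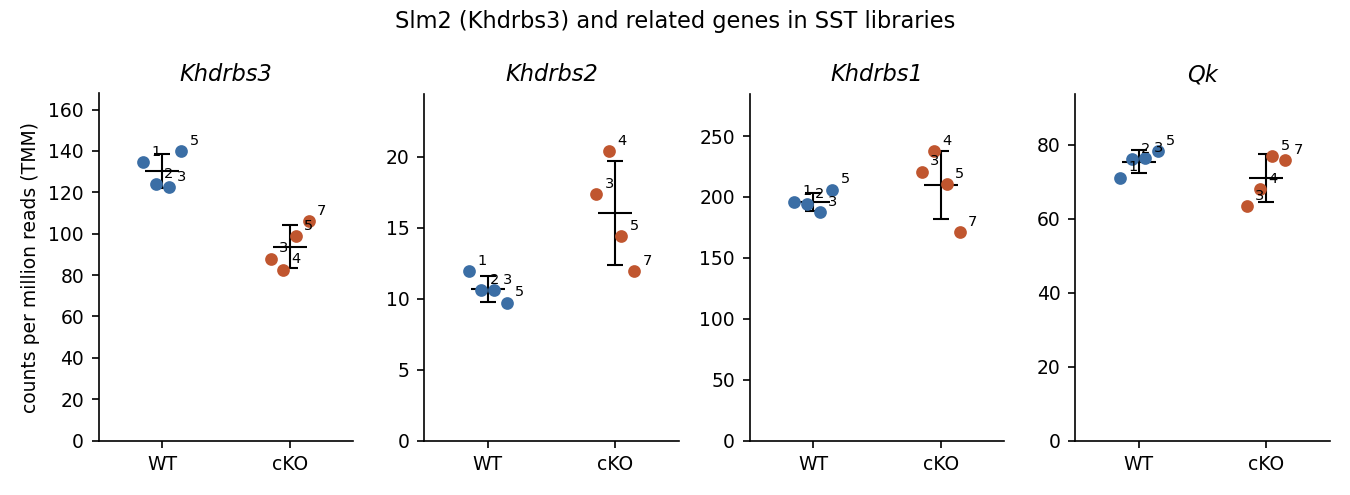
Level of the 4 STAR family genes in CPM in each SST library, with the replicate number beside each point and the mean ± SD (n = 4) as bars. The groups are apart for Khdrbs3 (82.6 to 105.9 CPM in cKO, 122.5 to 139.8 CPM in WT) and overlap for the other 3 genes.

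The second gene called, Rpl3-ps1, differed through 3 WT libraries. Libraries WT 1, 2 and 3 had 17.6, 7.93 and 11.8 CPM, whereas WT 5 had 3.18 CPM and cKO 3, 4, 5 and 7 had 3.09, 2.90, 3.42 and 2.74 CPM. WT 5 thus lay among the cKO libraries, and the groups overlapped. The log2 fold change was -1.74 (SE 0.29, adjusted p 0.0369 by edgeR). The parent gene Rpl3, which encodes a protein of the large ribosomal subunit, had a log2 fold change of 0.10 (edgeR adjusted p 0.850). Of the reads given to either gene, Rpl3-ps1 took 5.39, 2.48 and 3.80% in WT 1, 2 and 3. It took 0.897% in WT 5, 0.869 to 0.905% in the cKO libraries and 0.761 to 1.04% in the 15 CamK and Grik libraries.

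Rpl3-ps1 is a near-identical copy of the Rpl3 transcript, so its count rests on few bases. It lies on the plus strand at chrX:13202571-13203780, and Rpl3 on the minus strand at chr15:80077791-80091868. Over the 1210 bases of Rpl3-ps1 the annotated transcripts (GENCODE M21, GRCm38) differ at 2 positions, an identity of 99.8%, and 85.8% of all windows of 100 bases are identical in both. A read inside such a window could not be placed in one gene alone. Both positions lie in the coding region of Rpl3. They are shown with 30 bases on either side, 5′ to 3′ on the transcript strand, with the differing base in capitals:
Rpl3-ps1 site 1: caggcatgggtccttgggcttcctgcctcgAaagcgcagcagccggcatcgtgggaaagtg
Rpl3 site 1: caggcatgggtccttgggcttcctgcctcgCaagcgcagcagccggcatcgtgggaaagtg
Rpl3-ps1 site 2: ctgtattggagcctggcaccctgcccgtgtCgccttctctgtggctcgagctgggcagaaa
Rpl3 site 2: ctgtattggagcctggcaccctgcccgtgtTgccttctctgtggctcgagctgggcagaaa
The table of counts does not show which base the reads of each library carried. The Rpl3-ps1 call held with DESeq2 (adjusted p 2.50e-06), RLE scaling and a stricter filter, without WT 2 or WT 5, and without cKO 3, cKO 4 and WT 5 together. It was lost without any 1 of the cKO libraries (edgeR adjusted p 0.151 to 0.210), without WT 1 (0.127) and without WT 3 (0.184). It was also lost with no filter on low counts (adjusted p 0.130 by edgeR), by limma-voom (0.524), with the SST libraries alone (0.954), with either replicate block (0.525 and 0.980), with the non-neuronal score (0.128) or the sex score (0.0733) as a covariate, and without cKO 5 and cKO 7 (0.468).

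**Figure D3:**
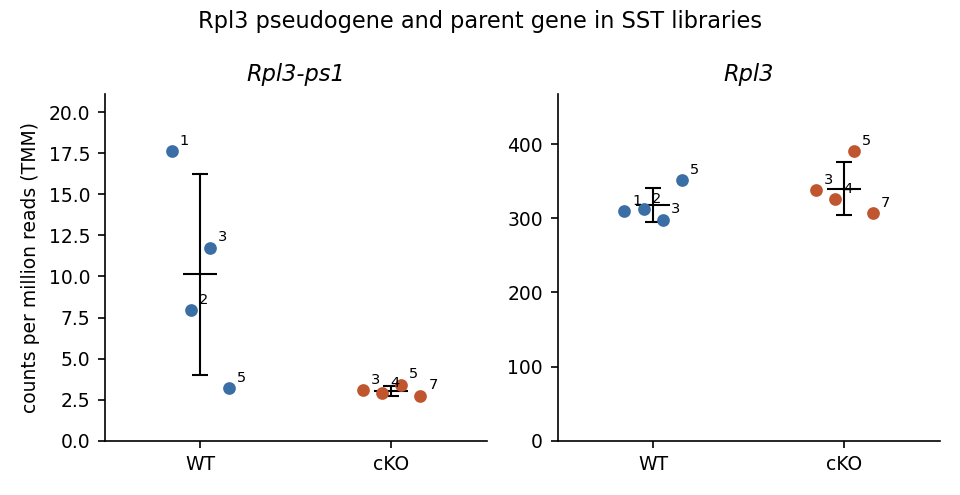
Level of Rpl3-ps1 and of its parent gene Rpl3 in CPM in each SST library, with replicate numbers and mean ± SD (n = 4). WT 1, 2 and 3 (7.93 to 17.6 CPM) are above all others for Rpl3-ps1, while WT 5 (3.18 CPM) sits with the cKO libraries.

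Among genes that leaned higher in cKO, none passed edgeR's threshold. Mt2, Mt1, Amt and Kcnj9 belong to a list chosen for having every cKO library above every WT library (1.43% of all genes). Their separation is therefore not a result in itself. The 2 metallothioneins, which bind zinc and copper and lie side by side on chromosome 8, were near the top. Mt2 had 7.20, 7.48, 11.6 and 13.9 CPM in cKO 3, 4, 5 and 7 and 5.61, 5.96, 5.71 and 6.44 CPM in WT 1, 2, 3 and 5. The groups did not overlap, and cKO 5 and cKO 7 were highest (log2 fold change 0.76, SE 0.17, adjusted p 0.346 by edgeR, DESeq2 adjusted p 0.0242). Mt1 had 20.1, 20.1, 28.8 and 31.6 CPM in cKO and 15.8, 19.4, 15.9 and 15.3 CPM in WT (log2 fold change 0.60, SE 0.17, adjusted p 0.833 by edgeR). The same libraries, cKO 5 and cKO 7, stood highest. Without them the log2 fold changes of Mt2 and Mt1 were 0.31 and 0.28.

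Amt, which encodes a component of the mitochondrial glycine cleavage system, was more even across libraries. It had 12.2, 13.7, 11.02 and 13.7 CPM in cKO and 9.15, 10.2, 9.99 and 9.50 CPM in WT (log2 fold change 0.39, SE 0.10, adjusted p 0.697 by edgeR, DESeq2 adjusted p 0.0308). Every cKO library was above every WT library, and the log2 fold change was 0.42 without cKO 5 and cKO 7. Kcnj9, a subunit of G-protein-gated inward rectifier potassium channels, had 48.6, 40.1, 53.8 and 69.8 CPM in cKO and 38.4, 39.3, 39.7 and 33.8 CPM in WT. The groups were apart by a narrow margin, with cKO 7 highest (log2 fold change 0.49, SE 0.13, adjusted p 0.833 by edgeR), and the value was 0.23 without cKO 5 and cKO 7.

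The other 8 of the 12 protein-coding genes listed by smallest unadjusted p, all chosen for being above WT in every cKO library (1.43% of all genes were), each had an edgeR adjusted p of 0.833. The scaffold gene Slc9a3r1 (0.63), the phospholipase gene Plcb3 (0.61) and the retinoic acid receptor gene Rarg (0.45) had the largest log2 fold changes. Tapbpl, related to the antigen-loading factor tapasin (0.35), Runx2, a transcription factor (0.33), and Dguok, a mitochondrial nucleoside kinase (0.32), followed. Nipal3 (0.22), a predicted magnesium transporter, and Fam219b (0.20) had the smallest.

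Other genes called higher by DESeq2 had few reads. Dkkl1 had 28, 8, 19 and 64 reads in cKO 3, 4, 5 and 7 and 3, 3, 0 and 3 reads in WT 1, 2, 3 and 5 (edgeR adjusted p 0.141). Klc3, a kinesin light chain gene, had 114, 104, 82 and 104 reads in cKO and 57, 40, 60 and 34 in WT (log2 fold change 1.12, edgeR adjusted p 0.300). In both genes the groups were apart, and the difference in Klc3 was the more even of the pair. Gm26747 and Gm17541 had 10 to 32 reads in each cKO library and 0 to 6 in each WT library. 1700007P06Rik rested on cKO 7, with 24 reads there, 2, 0 and 2 in cKO 3, 4 and 5, and 0 in every WT library.

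Of the protein-coding genes listed as lower in cKO, those with the largest log2 fold changes had uneven WT libraries. Iqgap3, a scaffold of the IQGAP family known in dividing cells, had 2.50, 2.01, 2.49 and 1.35 CPM in cKO and 7.90, 5.25, 2.85 and 5.20 CPM in WT. Ubr3, a ubiquitin ligase gene of the N-recognin family, had 327, 398, 411 and 188 CPM in cKO and 978, 676, 414 and 482 CPM in WT. Both were chosen for groups that do not overlap, with cKO below WT (1.28% of all genes). In both, WT 1 was highest, and WT 3 was close to the cKO libraries. The log2 fold changes were -1.35 (SE 0.35) for Iqgap3 and -0.94 (SE 0.25) for Ubr3, each with an edgeR adjusted p of 0.833. Unc13b, a priming factor of synaptic vesicles, also had its highest value in WT 1, at 110 CPM against 43.4 to 62.4 CPM in the other WT libraries and 32.0 to 47.9 CPM in cKO.

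The other 9 of the 12 lower protein-coding genes, chosen likewise for being below WT in every cKO library (1.28% of all genes were), had smaller, more even differences, each with an edgeR adjusted p of 0.833. Zfp943, a zinc finger gene, had a log2 fold change of -0.49 and Ints8, a subunit of the Integrator complex, -0.38. Rpp40, a subunit of ribonuclease P, had -0.35, Purg, related to the Pur-alpha nucleic acid binding protein, -0.33 and Lonrf1 -0.29. Bbs5, of the ciliary BBSome, had -0.25, Snx6, a sorting nexin of the retromer, -0.25, Ube2a, a ubiquitin-conjugating enzyme on chromosome X, -0.24 and Brix1, a ribosome assembly factor, -0.24. Bbs5 (chr2:69647171-69667571) and Ubr3 (chr2:69897246-70024013) lie near each other.

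The genes that define SST interneurons did not separate the genotypes. Of 24 identity genes, 0 were called and 0 had an unadjusted p under 0.05, and the median log2 fold change was 0.05, against 0.02 over all genes. Sst itself had 2125, 1080, 2018 and 1010 CPM in cKO 3, 4, 5 and 7 and 1720, 159, 554 and 1557 CPM in WT 1, 2, 3 and 5. The libraries spread widely within each genotype, and WT 2 was lowest (log2 fold change 0.64, SE 0.48, adjusted p 0.860 by edgeR). Gad1, by contrast, was even across libraries, at 2032 to 3205 CPM in cKO and 2546 to 3087 CPM in WT. WT 2, lowest in Sst, had 3087 CPM of Gad1. The cKO 7 library had the lowest summed level of the 24 genes, at 9114 CPM against 10359 to 12251 CPM in the other 7.

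Transcripts whose exons Slm2 is known to regulate include Nrxn2, Nrxn3 and Stxbp5l, a relative of tomosyn that restrains vesicle fusion, and none of these was called. Nrxn2 had 348, 286, 298 and 263 CPM in cKO and 287, 295, 243 and 240 CPM in WT, with overlapping groups (log2 fold change 0.17, SE 0.10, adjusted p 0.842 by edgeR). The log2 fold change of Nrxn3 was 0.0043 (SE 0.10) and that of Stxbp5l -0.26 (SE 0.17, adjusted p 0.850 by edgeR). Among 49 splicing factor genes tested 0 were called, with a median of -0.03. At an unadjusted p under 0.05, 1 was higher (Srsf9, 0.19) and 1 lower (Hnrnpc, -0.19), where 3.36 and 2.49% of all genes were.

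Synaptic gene classes moved little. No member was called among 43 synaptic adhesion molecules, 32 genes of the presynaptic release machinery, 22 postsynaptic scaffolds, 16 AMPA receptor genes, 5 NMDA receptor subunits, 6 kainate receptor genes, 6 metabotropic glutamate receptors and 17 GABA receptor genes. Their medians ran from -0.03 (GABA receptors) to 0.09 (NMDA receptor subunits), and 4 of these genes had an unadjusted p under 0.05 (5.85% of all genes did). These were Cadm3, an adhesion molecule (log2 fold change 0.23), Stx1a, the plasma membrane SNARE syntaxin (0.20), Grm2, a presynaptic glutamate receptor (0.51), and Unc13b (-0.67). Of 66 protocadherins, adhesion molecules of neuronal self-recognition, 2 had an unadjusted p under 0.05, Pcdhb10 (0.33) and Pcdhga6 (0.30), a share below that of all genes.

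Secreted synapse organisers had the most members at an unadjusted p under 0.05 of any neuronal class, though none was called. Of 23 genes, 6 were higher at that level and 0 lower, with a median log2 fold change of 0.14, where 3.36% of all genes were higher and 2.49% lower at that level. The glypican Gpc4 had 4.02, 5.38, 5.72 and 5.55 CPM in cKO and 2.75, 3.74, 3.79 and 5.12 CPM in WT (log2 fold change 0.43). The pentraxin receptor Nptxr had 169, 160, 193 and 232 CPM in cKO and 131, 195, 145 and 152 CPM in WT (0.28). Both genes overlapped between the groups. Cbln2, a cerebellin that bridges neurexins and postsynaptic receptors, had a log2 fold change of 0.60, the neurexophilin Nxph3 had 0.61, the neurotrophin Bdnf 0.42 and Sparcl1, an astrocyte-secreted organiser, 0.22. In Cbln2, Nxph3 and Bdnf cKO 7 was the highest library, at 4.17, 5.61 and 8.59 CPM. Without cKO 5 and cKO 7 the median of the class was 0.04.

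Channels and receptors of modulators showed scattered differences. Of 41 potassium and HCN channel genes, 4 were higher at an unadjusted p under 0.05 (3.36% of all genes) and 0 lower: Kcnj9, its relative Kcnj4 (log2 fold change 0.55), the background channel Kcnk2 (0.32) and the Kv4 partner Kcnip2 (0.32). Kcnip2 was -0.065 without cKO 5 and cKO 7. The median was 0.06. Of 20 receptors for monoamines, acetylcholine and adenosine, 5 were higher and 0 lower at the same level, among them the adenosine receptor Adora1 (0.34), the muscarinic receptor Chrm1 (0.25) and the nicotinic subunit Chrna4 (0.30). Adora1 had 49.7, 44.4, 67.2 and 78.2 CPM in cKO and 43.0, 55.6, 45.7 and 44.2 CPM in WT. Its 2 high values were again cKO 5 and cKO 7, and without them the log2 fold change was -0.0037. The sodium channel genes (9 tested) had 0 members at that level and the calcium channel genes (15 tested) had 1, Cacna1i (0.22).

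Activity-regulated genes had a median log2 fold change of -0.17, without a call. Of 24, 2 were lower and 1 was higher at an unadjusted p under 0.05, against 2.49% lower and 3.36% higher of all genes. The transcription factor Egr1 had 43.2, 36.6, 61.4 and 44.4 CPM in cKO and 68.2, 45.5, 31.3 and 97.8 CPM in WT. The WT libraries spanned the cKO range, with WT 1 and WT 5 high (log2 fold change -0.39, SE 0.28, adjusted p 0.851 by edgeR). Egr4 (-0.72) and Egr2 (-1.06), of the same family, had high values in the same WT libraries. Bdnf was the member higher at that level (0.42), and it was -0.10 without cKO 5 and cKO 7. The median of the list was -0.33 to -0.04 when each library was left out in turn.

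Housekeeping and stress programmes were near the median of all genes. Of 84 cytosolic ribosomal protein genes 2 were lower at an unadjusted p under 0.05, Rpl15 (-0.16) and the little-read Rpl39l. Over all genes, 2.49% were lower and 3.36% higher at that level. The list median was 0.03. Of 82 nuclear-encoded genes of oxidative phosphorylation 1 was lower, Uqcrc2 of complex III (-0.18), with a median of 0.01. Unfolded protein and heat shock genes had a median of -0.07, and 14 of 20 had a negative log2 fold change. At an unadjusted p under 0.05, 2 of 20 were lower (2.49% of all genes), the asparagine synthetase Asns (-0.19) and the chaperone Hsph1 (-0.23). Cholesterol synthesis (19 genes), axon guidance (30) and perineuronal net genes (12) had 0 members at an unadjusted p under 0.05. Interferon and inflammatory genes had 2 of 16 higher (3.36% of all genes), the cytokine gene Il1b, at most 0.124 CPM in any library, and Bst2.

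Mitochondrially encoded genes differed most in level, and 2 libraries held the difference. Of 8 tested, 7 were higher at an unadjusted p under 0.05 (3.36% of all genes), 0 were called, and the median log2 fold change was 1.57. Their summed level was 120, 65.6, 378 and 1014 CPM in cKO 3, 4, 5 and 7 and 70.8, 163, 146 and 135 CPM in WT 1, 2, 3 and 5. The groups overlapped, and cKO 5 and cKO 7 stood above all others. mt-Cytb, of respiratory complex III, had 76.9 and 215.7 CPM in these libraries and 10.9 to 30.7 CPM in the other 6. Without them the median of the list was -0.44. The cKO 7 library also had the highest sum of nuclear long non-coding RNAs such as Meg3, at 851 CPM against 228 to 414 CPM in the other 7.

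Markers of glia and excitatory cells were highest in the same pair of libraries. The 14 oligodendrocyte genes summed to 587, 390, 1243 and 1415 CPM in cKO and 451, 847, 565 and 774 CPM in WT. Their median log2 fold change was 0.44, with 4 members higher at an unadjusted p under 0.05. For this and the following lists, the share of all genes at that level was 3.36% higher and 2.49% lower. Mog, a myelin protein, had 5.87, 4.89, 17.96 and 22.99 CPM in cKO and 5.98, 7.36, 7.36 and 7.54 CPM in WT. The 12 microglia genes summed to 26.8, 20.9, 36.6 and 50.3 CPM in cKO and 20.5 to 26.3 CPM in WT, with 1 member higher (Aif1) and a median of 0.84. The 12 astrocyte genes had a median of 0.25 with 1 member higher (S100b), and the 20 excitatory genes a median of 0.18 with 4 members higher (Emx1, Tbr1, Fezf2 and Neurod1). Without cKO 5 and cKO 7 these medians were -0.23 for oligodendrocytes, 0.06 for microglia, -0.35 for astrocytes and -0.08 for excitatory cells. The 17 markers of other interneuron types summed to 551, 546, 553 and 648 CPM in cKO and 454, 587, 501 and 561 CPM in WT, with cKO 7 alone above the WT range (median 0.12, 2 members higher at that level, Cck and Vip). Endothelial and mural genes had a median of -0.18 (1 of 12 lower, Kdr), which ran from -0.41 to 0.12 with each library left out in turn. Their sum was 77.8 CPM in WT 2 and 23.4 to 51.3 CPM in the other SST libraries. No gene of these lists was called. With the non-neuronal score as a covariate, edgeR called none of Mt1, Mt2, Kcnj9, Adora1 and the synapse organisers, as in the main fit. How large a part these cells have in the differences of those genes was not tested.

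**Figure D4:**
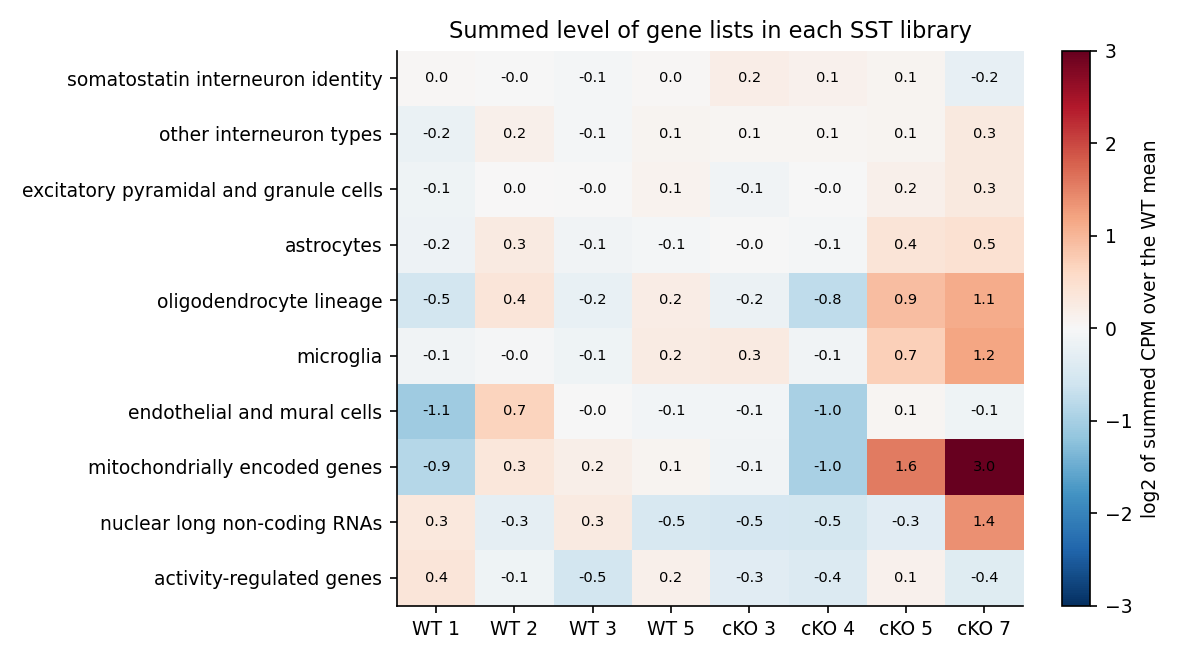
Summed CPM of each gene list in each SST library, as the log2 ratio to the mean of the 4 WT libraries. Libraries cKO 5 and cKO 7 stand above all others for the mitochondrially encoded, oligodendrocyte and microglia lists, while the somatostatin interneuron list stays close to the WT mean and is lowest in cKO 7 (9114 CPM).

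**Figure D5:**
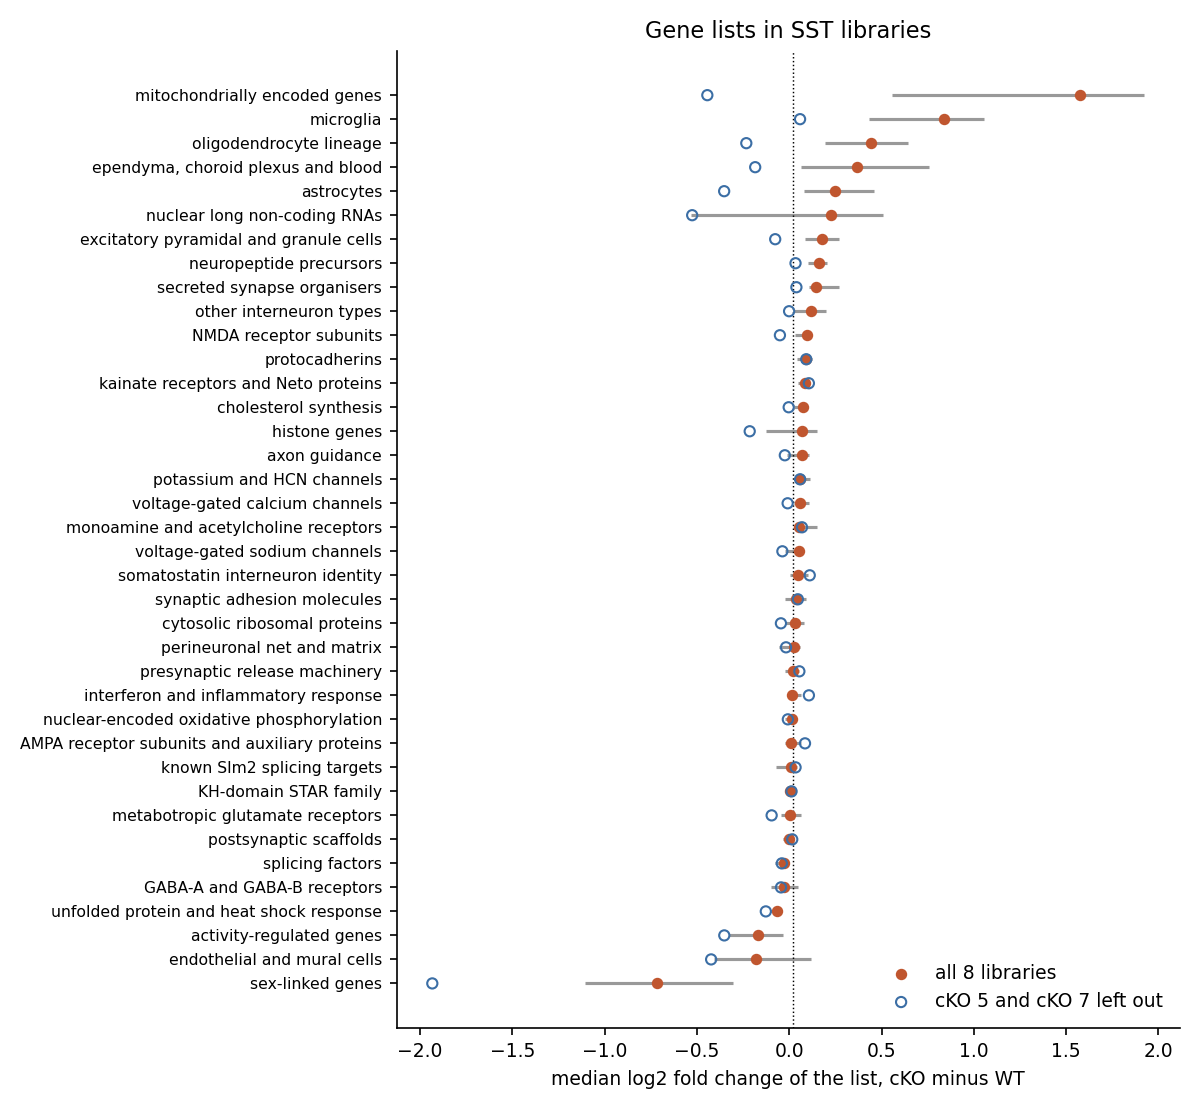
Median log2 fold change (cKO minus WT) of each gene list over its tested members (orange), its range when each SST library is left out in turn (grey line), and its value without cKO 5 and cKO 7 (open circles); the dotted line is the median of all genes, 0.02. The mitochondrially encoded, oligodendrocyte and astrocyte medians (1.57, 0.44 and 0.25) fall below 0 without these libraries, and most neuronal classes stay near 0.

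Annotation classes were set beside the background of 3.36% higher and 2.49% lower at an unadjusted p under 0.05. Of 15302 protein-coding genes 3.43% were higher and 2.74% lower. Of 611 long intergenic non-coding RNAs 4.91% were higher and 1.47% lower, and of 1149 processed pseudogenes 1.74% were higher and 1.83% lower. Among 726 genes of chromosome X, 1.65% were higher and 3.86% lower, and the X- and Y-linked values above show that the libraries were not matched in sex-linked RNA.

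The effect in SST interneurons was compared with that in the excitatory populations, each against its own WT libraries. Between SST and CamK 0 of 18823 genes differed in effect (0%, edgeR, adjusted p under 0.05), with 1477 at an unadjusted p under 0.05 (7.85%). DESeq2 gave 10. Between SST and Grik 2 genes differed (0.0106%), Khdrbs2 and Khdrbs3. The log2 fold change of Khdrbs3 was -0.47 in SST, -0.42 in CamK and 0.30 in Grik, where the libraries labelled cKO went against their label by having more Khdrbs3 reads than WT. The difference from Grik was -0.78 (edgeR adjusted p 0.00135), and its size rests on those libraries. For Khdrbs2 the log2 fold changes were 0.58 in SST, 1.52 in CamK and 2.17 in Grik. The SST effect minus the Grik effect was -1.59 (edgeR adjusted p 4.39e-05), taking the Grik labels as given. In Grik, Khdrbs2 and Khdrbs1 (0.56) were higher in the libraries labelled cKO, as they were in CamK (Khdrbs1 0.59). Khdrbs3 reads were higher in Grik as well, for a reason that was not tested. The difference of -0.94 from CamK missed the threshold (edgeR adjusted p 0.314). Rpl3-ps1 had log2 fold changes of 0.01 in CamK and -0.15 in Grik, and its differences from SST also missed it (edgeR adjusted p 0.504 from CamK and 0.9999 from Grik).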

How the data were processed

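Polyadenylated RNA was sequenced, and the authors deposited 1 table of whole-number read counts per gene for all 23 libraries. Per the submitters' processing notes, Trimmomatic, STAR and the mouse build GRCm38 were used. Their versions, the annotation release and the strand setting are not given in the sources used here. For that reason overlapping genes and near-identical copies are uncertain. Columns were matched to samples by name. The 4 summary rows that name no gene (12.4 to 18.4% of an SST library's reads) were left out. Of 45706 gene IDs, 45143 matched GENCODE M21. With 87612006 to 112993538 gene reads per SST library, counting error is small for all but little-read genes.

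Genes kept by filterByExpr (18823) were scaled by TMM, all 23 libraries were fitted in edgeR 4.0.16 (glmQLFit, robust, 17 residual degrees of freedom) and tested by glmQLFTest, and p-values were adjusted by Benjamini-Hochberg with a threshold of 0.05. The SE is the log2 fold change over the square root of F. Fits were tested on simulated data, which held no differences in cell composition between libraries of a population such as those of cKO 5 and cKO 7. Lists were described by counts and medians. Alternatives used limma 3.58.1, DESeq2 1.42.0, RLE scaling, other filters, the SST libraries alone, replicate blocks, a non-neuronal and a sex score as covariates, and left-out libraries. Leaving out cKO 5 and cKO 7, or the libraries with high Xist, was chosen after seeing the data.

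Named are the STAR genes, genes called by edgeR or DESeq2, the 12 higher and 12 lower protein-coding genes with the smallest unadjusted p among those with a mean of at least 1 CPM and no overlap between groups, and per list up to 4 members at an unadjusted p under 0.05 and its most abundant members. Members and lists were chosen with earlier results of these data known. Some genes chosen under this rule are not reported here.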

Additional observations from a re-analysis of the deposited data

Results flagged for a closer look

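In 144 groups of 4 libraries tested for 1 library far from the others, 10 had one. A rate of 1 in 20 groups would give 7.2. That rate is only a rough guide, since the genes were chosen from these data and the groups share libraries. Library cKO 7 stood apart within the cKO group in 4 values: 1700007P06Rik (0.23 CPM, the others at most 0.0205), the summed markers of other interneuron types (648 CPM, the others 546 to 553), the summed presynaptic release machinery (20400 CPM, the others 22900 to 23200) and the summed nuclear long non-coding RNAs (851 CPM, the others 228 to 262). Library cKO 5 was highest of the cKO group in summed activity-regulated genes (550 CPM, the other cKO libraries 375 to 399). Among WT libraries, WT 2 was high in Mt1 (19.4 CPM, the others 15.3 to 15.9) and in the presynaptic release machinery (22700 CPM, the others 21900 to 22000). WT 3 was low in Brix1 (26.1 CPM, the others 27.8) and in nuclear-encoded oxidative phosphorylation (16600 CPM, the others 17900 to 18000), and WT 5 was high in Ube2a (58.9 CPM, the others 48.0 to 49.1).

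The cKO effect differed between populations for 2 genes by edgeR's test of the difference itself. The SST effect minus the Grik effect was -1.59 (log2) for Khdrbs2 and -0.777 for Khdrbs3, taking as given the labels of Grik libraries in which Khdrbs3 went against the cKO label.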

How the results depend on the processing

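Counts of called genes were small and moved with the setting. Higher genes numbered 0, or 9 by DESeq2, 2 without cKO 5 and cKO 7 (Khdrbs2 and Alb, the latter named after its values were seen), 194 without cKO 3, cKO 4 and WT 5, and 0 to 1 with each library left out. Lower genes numbered 2, or 1 with no filter, 0 by limma-voom, 0 with the SST libraries alone, 1 with the non-neuronal score, 0 with the sex score, 34 without cKO 3, cKO 4 and WT 5, and 0 to 2 with each library left out. Differences from CamK numbered 0, or 10 by DESeq2, 1 by limma-voom, 1 with the non-neuronal score, 15 without cKO 3, cKO 4 and WT 5, and 0 to 1 with each library left out. Differences from Grik numbered 2, or 4 by DESeq2 and 5 without cKO 3, cKO 4 and WT 5. Khdrbs3 stayed lower in every fit run: -0.54 to -0.42 with each library left out, -0.44 by limma-voom (adjusted p 0.0614), -0.49 with the SST libraries alone (adjusted p 0.954), -0.46 with the sex score (adjusted p 0.0569) and -0.31 without cKO 3, cKO 4 and WT 5. Khdrbs2 stayed higher: 0.58 by DESeq2, 0.44 to 0.70 with each library left out (0.70 without cKO 7) and 0.82 without cKO 5 and cKO 7. Without cKO 5 and cKO 7 these log2 fold changes turned: Adora1 -0.0037, Adcyap1 -0.10, mt-Nd4 -0.44, S100b -0.048, mt-Cytb -0.40, Tbr1 -0.045, mt-Nd6 -0.14, mt-Nd2 -0.39, Fezf2 -0.061, Adora2a -0.18, Hba-a2 -0.15, Kcnip2 -0.065, Mal -0.23, Cldn11 -0.24, Bdnf -0.10, Vip -0.30, Sox10 -0.027 and Mog -0.39. Without cKO 3, cKO 4 and WT 5 Khdrbs1 was -0.014 and Qk 0.037. The cause was not tested.

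Replicate numbers 3 and 5 occur in both genotypes, but deviations of same-numbered libraries correlated at -0.167 and 0.332, so the numbers were not taken to pair samples. With the number as a block within each population (3 residual degrees of freedom) 5 genes were lower (Lypd1, Rasd1, Sv2c, Meis2 and Lzts1, named after their values were seen), 3 differed from CamK and 4 from Grik, Khdrbs3 was -0.49 (edgeR adjusted p 0.225) and Cacna1i turned to -0.0057. With a block across populations 1 gene was higher and 1 lower, and Khdrbs2 was 0.70 (edgeR adjusted p 0.0255).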

Other observations

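Some genes, inside or outside the lists, set single libraries apart. Muscle genes were highest in cKO 7, with 44.1 CPM of the myosin heavy chain Myh4 against 3.51 to 9.34 CPM in the other 7 SST libraries, and 21.8 CPM of the actin Acta1 against 3.80 to 7.66 CPM. Haemoglobin was highest in cKO 5, at 33.05 CPM of Hbb-bs against 3.39 to 7.45 CPM in the others. Alb, the gene of serum albumin, had 8.38 CPM in cKO 3 and at most 0.0508 CPM in the other 7 SST libraries. Zic1, a transcription factor of the septum and thalamus among other regions, had 99.7 CPM in WT 5 and 5.56 to 33.1 CPM in the others, and Prkcd had 71.6 CPM there against 6.25 to 28.6 CPM. Ttr, the transthyretin gene of the choroid plexus, had 2.03 CPM in WT 2 and 55.3 to 234 CPM in the others.

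Lars2 and Gm42418 split the libraries across genotypes. Lars2, a mitochondrial leucyl-tRNA synthetase gene, had 105, 3583, 783 and 302 CPM in cKO 3, 4, 5 and 7 and 190, 319, 1583 and 3113 CPM in WT 1, 2, 3 and 5. Gm42418 was highest in the same pair, cKO 4 and WT 5, at 20024 and 13003 CPM. These genes were named after their values were seen.

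With cKO 3, cKO 4 and WT 5 left out, so that the 5 libraries with low Xist were compared, edgeR called 228 of 19132 genes tested. Of these, 194 were higher and 34 lower. Mt2 (log2 fold change 1.15, adjusted p 0.00209), Mt1 (0.83, adjusted p 0.0465) and Kcnj9 (0.66, adjusted p 0.0221) were among those higher. Markers of other cells were called higher with them: 5 of 20 excitatory genes, 3 of 14 oligodendrocyte genes and 1 of 12 astrocyte genes. So were 5 of 8 mitochondrially encoded genes, and 0 members of these lists were called lower. No microglia gene was called. Neuronal lists had calls too: 3 of 19 neuropeptide precursors, 3 of 20 monoamine and acetylcholine receptors, 3 of 41 potassium and HCN channels and 2 of 23 secreted synapse organisers were higher. Of 22 postsynaptic scaffolds, 2 were lower. The muscle genes Myh4 and Acta1 were also called. The cKO arm was then cKO 5 and cKO 7, the libraries with the most oligodendrocyte, microglia and mitochondrial RNA. The part of that RNA in the 194 calls was not tested.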
